A study of Mus musculus with 7 samples.

Results

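By RNA sequencing, transcripts of 8 genes of the dystrophin glycoprotein complex were followed in left atria from adult mice of the outbred CD1 strain. The genes were taken by name: Dmd, Utrn, Dag1, Sgca, Sgcb, Sgcd, Sntb1 and Dtna, each a row of a count table of 24421 genes, and all 8 had enough counts to be tested. Left atria labelled FOG2 Overexpression gave 4 libraries and left atria labelled WT gave 3. All animals had been without doxycycline for 1 week. The protocol calls the animals DTG and NTG without spelling out either name. The sources used here give neither the promoter that drives the transgene, nor sex or litter, nor whether each library is a separate animal. The p-values therefore rest on a spread between libraries that may include technical variation.

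Dystrophin is a long rod that ties the actin cytoskeleton of a muscle cell to a complex in its membrane. Dystroglycan is the core of that complex and binds laminin outside the cell; the sarcoglycans and sarcospan sit beside it in the membrane, and syntrophins and dystrobrevins dock signalling proteins on its inner face. The complex protects the membrane during contraction, and loss of dystrophin or of a sarcoglycan causes muscular dystrophy and cardiomyopathy. FOG2 is encoded by Zfpm2 and acts on GATA factors as a cofactor. TBX5 and GATA4 are named in the title of the series, and the comparison addresses which atrial transcripts differ with more FOG2.

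Gene counts totalled 5562520 to 8655655 in a library. Levels are given as CPM, the count relative to the library total after TMM scaling, and a single count was worth 0.111 to 0.174 CPM. Zfpm2 had 139.9, 222, 261 and 246 CPM in overexpression replicates 1 to 4, against 31.7, 30.9 and 29.4 CPM in wild type replicates 1 to 3. Across tested genes overexpression replicate 1 correlated with the other overexpression libraries at r = 0.947 to 0.949, and those 3 with each other at 0.978 to 0.983, so it stood apart. Y-linked transcripts were plentiful in overexpression replicate 1 and wild type replicate 2, with 4908 and 3943 counts, and had at most 4 counts in each other library. The atrial myosin light chain Myl7 had 1423 to 3503 CPM in overexpression libraries and 8026 to 9002 CPM in wild type libraries, and no library lacked the cardiomyocyte markers. Of 13295 genes tested, 206 were higher and 438 lower in overexpression at a Benjamini-Hochberg adjusted p under 0.05 (edgeR quasi-likelihood test), which is 4.84% of them, or 1.55% higher and 3.29% lower.

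Of the 8 genes of the complex, 1 was called lower, 0 higher and 7 neither. The gene that fell was Sgcb, beta-sarcoglycan, at 0.752-fold, while the genes of dystrophin and utrophin had fold changes of 0.991 and 0.988. The share called, 12.5%, rests on that single gene and stands beside 4.84% of all genes, 3.29% called lower and 1.55% called higher. The groups did not overlap for Sgcb, lower, and for Sntb1, beta-1-syntrophin, higher. The same held for 19.8% of all genes tested, 10.8% lower and 8.99% higher. The median log2 fold change of the 8 genes was -0.05, against 0.02 over all genes, with 2 positive values and 6 negative ones.

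**Figure D1:**
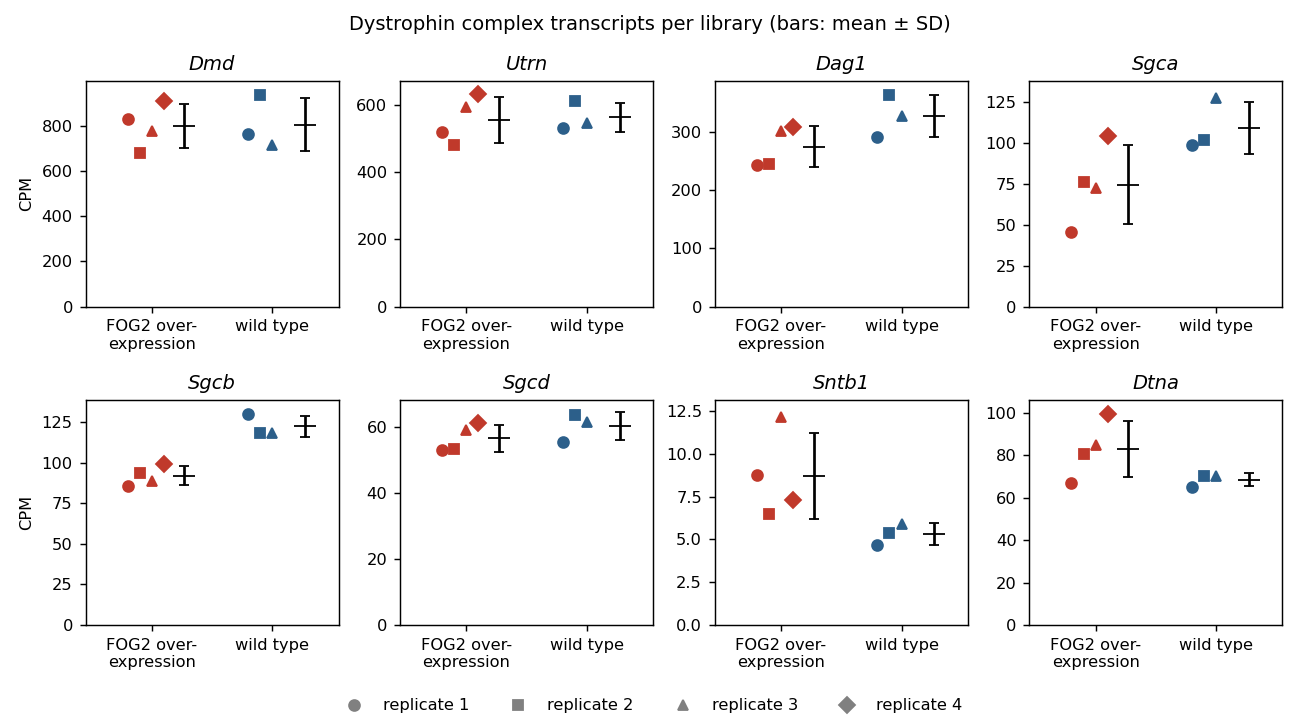
CPM of the 8 dystrophin complex genes in each library, overexpression in red on the left and wild type in blue on the right, with the mean ± SD beside each group and a marker shape for each replicate number. Sgcb lies below every wild type library in all 4 overexpression libraries (86.0 to 99.5 CPM against 119 to 130.1 CPM), and the groups overlap for Dmd.

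Dystrophin, encoded by Dmd on chromosome X from 82948870 to 85206141 (mm10, plus strand), had 827, 677, 776 and 908 CPM in overexpression replicates 1 to 4, against 764, 936 and 712 CPM in wild type replicates 1 to 3. The lowest of all 7 values was in an overexpression library and the highest in a wild type library, and the groups overlapped. The mean was 797 ± 96.8 CPM in overexpression (SD, n = 4) and 804 ± 117 CPM in wild type (SD, n = 3). The log2 fold change was -0.01 ± 0.14 (SE, adjusted p = 0.973). Its 95% interval ran from 0.794-fold to 1.24-fold, so these libraries do not exclude a change within those bounds. The smallest change they could detect was not computed. Dmd is X-linked, and among the libraries without Y-linked transcripts, a subset chosen after seeing the data, it was again not called.

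Utrophin, encoded by Utrn on chromosome 10 from 12382188 to 12869365 (minus strand), is the autosomal relative of dystrophin and can take its place on dystroglycan. It is known for its rise in dystrophin-deficient muscle. Utrn had 519, 483, 594 and 633 CPM in overexpression atria, against 531, 612 and 548 CPM in wild type atria. The wild type values all lay inside the overexpression range. Its log2 fold change was -0.02 ± 0.13 (SE, adjusted p = 0.957), with a 95% interval of 0.813-fold to 1.20-fold. The number of Utrn counts per Dmd count, which does not depend on scaling between libraries, was 0.701 ± 0.0568 in overexpression (SD, n = 4) and 0.706 ± 0.0580 in wild type (SD, n = 3). An exact two-sided permutation test of that ratio gave p = 0.857, where 7 libraries allow no p below 0.0571.

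Dystroglycan, encoded by Dag1 on chromosome 9 from 108204634 to 108263958 (minus strand), is the laminin receptor of the complex. It had 242, 245, 301 and 307 CPM in overexpression atria, against 291, 362 and 326 CPM in wild type atria. Replicates 1 and 2 of the overexpression group lay below every wild type library, and replicates 3 and 4 lay within the wild type range. The mean of 274 ± 35.1 CPM in overexpression (SD, n = 4) and 326 ± 35.7 CPM in wild type (SD, n = 3) gave a log2 fold change of -0.25 ± 0.13 (SE, adjusted p = 0.331).

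The sarcoglycans are single-pass membrane proteins that assemble with each other before they join dystroglycan. Sgcb, on chromosome 5 from 73632749 to 73647790 (minus strand), had 86.0, 93.9, 88.9 and 99.5 CPM in overexpression replicates 1 to 4, against 130.1, 119 and 119 CPM in wild type replicates 1 to 3. Every overexpression library was below every wild type library, and the spread within each group was small, with a coefficient of variation of 6.43% in overexpression and 5.45% in wild type. Its mean was 92.1 ± 5.92 CPM in overexpression (SD, n = 4) and 122 ± 6.68 CPM in wild type (SD, n = 3), a log2 fold change of -0.41 ± 0.09 (SE, adjusted p = 0.0353). The value was negative in all 20 alternative settings and called in 10 of them, with adjusted p from 0.00199 to 0.839. Of the 7 fits that left out a library, only the one without overexpression replicate 1 called it. The adjusted p was 0.0775, 0.0842 and 0.0522 without overexpression replicates 2, 3 and 4, and 0.168, 0.121 and 0.0849 without wild type replicates 1, 2 and 3. It was 0.113 with library totals only, where 5.55% of all genes were called, and 0.0533 among the libraries without Y-linked transcripts.

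Sgca, alpha-sarcoglycan, the member most restricted to striated muscle, lies on chromosome 11 from 94962791 to 94976327 (minus strand). It had 45.8, 75.9, 72.3 and 104 CPM in overexpression atria, against 98.5, 102 and 127 CPM in wild type atria. Replicate 1 of the overexpression group was the lowest of all libraries, and replicate 4 lay inside the wild type range. The difference in means was wider than for Sgcb, 74.6 ± 23.9 CPM in overexpression (SD, n = 4) and 109 ± 15.7 CPM in wild type (SD, n = 3), but so was the spread, and the gene was not called (-0.55 ± 0.24, SE, adjusted p = 0.261). The highest and lowest overexpression libraries differed 2.28-fold.

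Sgcd, delta-sarcoglycan, which is found in smooth as well as striated muscle, lies on chromosome 11 from 46896253 to 47988969 (minus strand). It had 53.0, 53.2, 58.9 and 61.0 CPM in overexpression atria, against 55.4, 63.6 and 61.4 CPM in wild type atria. The groups overlapped, the log2 fold change was -0.09 ± 0.10 (SE, adjusted p = 0.668), and the 95% interval of 0.807-fold to 1.10-fold lay above the fold change measured for Sgcb. Whether Sgcb and Sgcd differed from each other in their response was not tested.

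The 250 bases before the RefSeq starts of the sarcoglycan genes are shown because Sgcb was the member called and Sgca and Sgcd were the members of the same subcomplex. They were taken from RefSeq (GRCm38.p6) on the minus strand, 5′ to 3′, at chr5:73647738-73647987, chr11:94976328-94976577 and chr11:47379326-47379575, and capitals mark matches to the T-box core GGTGTG on either strand:
Sgcb: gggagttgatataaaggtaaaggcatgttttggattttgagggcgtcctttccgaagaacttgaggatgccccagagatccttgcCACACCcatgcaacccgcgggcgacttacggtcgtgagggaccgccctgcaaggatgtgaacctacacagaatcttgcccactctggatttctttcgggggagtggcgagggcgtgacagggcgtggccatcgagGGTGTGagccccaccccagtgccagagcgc
Sgca: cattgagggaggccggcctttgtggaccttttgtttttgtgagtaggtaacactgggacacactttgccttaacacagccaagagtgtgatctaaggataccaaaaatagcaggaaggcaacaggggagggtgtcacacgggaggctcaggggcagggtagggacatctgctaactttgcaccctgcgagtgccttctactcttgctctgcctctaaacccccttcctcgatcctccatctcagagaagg
Sgcd: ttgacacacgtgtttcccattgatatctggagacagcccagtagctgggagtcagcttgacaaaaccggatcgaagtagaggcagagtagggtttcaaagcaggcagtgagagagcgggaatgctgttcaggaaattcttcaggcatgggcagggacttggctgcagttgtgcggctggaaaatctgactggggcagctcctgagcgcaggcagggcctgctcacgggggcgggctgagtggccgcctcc
The windows were searched on both strands for GGTGTG and for 4 GATA words, AGATAA or AGATAG and likewise TGATAA or TGATAG, since the series names TBX5 and GATA4. The search covered windows of 6 of the 8 genes, with 8 starts in all. No window of Sntb1 or Dtna was searched, so nothing is said here about their promoters. The window of Sgcb held 2 T-box words, from 165 to 160 and from 30 to 25 bases before the start, and that of Utrn held 1, from 113 to 108 bases before it. None of the 8 windows held a GATA word. The RefSeq starts are not always those of the gene spans given above: that of Sgcb lies 53 bases inside its span, so the word nearest its start lies within the span, and those of Utrn and Sgcd lie 7630 and 609644 bases inside theirs. Of 32851 windows of this length in the table, 16.3% held the T-box word and 26.5% a GATA word. A match is a string of letters and not a bound site, and its absence says only that the letters are not in the window.

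On the inner face of the complex, 2 members had higher means in overexpression, and neither passed the test. Sntb1, a syntrophin, an adaptor that binds dystrophin and anchors channels and signalling enzymes, had 8.76, 6.49, 12.2 and 7.32 CPM in overexpression atria, against 4.64, 5.36 and 5.90 CPM in wild type atria. Every overexpression library exceeded every wild type library. The gene was scarce, with 45 to 79 counts per overexpression library and 38 to 48 per wild type library. Its log2 fold change was 0.70 ± 0.25 (SE, unadjusted p = 0.0194, adjusted p = 0.162). Sntb1 lies on chromosome 15 from 55636388 to 55906949 (minus strand).

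Dtna, alpha-dystrobrevin, a relative of dystrophin that binds syntrophins, lies on chromosome 18 from 23415135 to 23659715 (plus strand). It had 67.2, 80.6, 84.9 and 99.6 CPM in overexpression atria, against 65.3, 70.1 and 70.5 CPM in wild type atria. Overexpression replicate 1 lay within the wild type range and the other 3 lay above it. The log2 fold change was 0.28 ± 0.13 (SE, adjusted p = 0.296), and without overexpression replicate 1 it was 0.37 ± 0.10 (adjusted p = 0.0495; range over all alternatives 0.0116 to 0.550). Without that library, 8.73% of the genes tested were called. An antisense transcript, Gm47898, shares 90 bases of exon with Dtna, which is 0.532% of its exon length.

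Within a group, the same libraries often held the extremes. Overexpression replicate 4 held the highest overexpression value for 7 of the 8 genes, all but Sntb1. Overexpression replicate 1 held the lowest for Dag1, Sgca, Sgcb, Sgcd and Dtna, and replicate 2 for Dmd, Utrn and Sntb1. Among wild type libraries, replicate 2 was highest for Dmd, Utrn, Dag1 and Sgcd, and replicate 1 was lowest for 6 genes. The summed cardiomyocyte markers were highest in overexpression replicate 4 of its group (140101 CPM) and in wild type replicate 2 of its group (183094 CPM). They were lowest in overexpression replicate 2 (99504 CPM, against 115826 CPM in overexpression replicate 1), which was not the lowest library for most members. Their part in these values was not tested.

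Sums of cell type markers were taken beside these values, and single genes carried several of them. The 11 cardiomyocyte markers summed to 99504 to 140101 CPM in overexpression libraries and 155934 to 183094 CPM in wild type libraries, with 3 called lower (Ryr2, Myl7 and Sln) and 0 higher. The 14 smooth muscle and pericyte markers summed to 2105 to 2692 CPM in overexpression and 1303 to 1574 CPM in wild type, with 3 called higher (Acta2, Cspg4 and Notch3) and 0 lower. Without Acta2, smooth muscle actin, the sums overlapped, at 1425 to 1821 CPM in overexpression and 1288 to 1554 CPM in wild type, and Smtn (-0.18) and Abcc9 (-0.20) had negative log2 fold changes. The 10 fibroblast markers summed to 16220 to 19624 CPM in overexpression and 11690 to 16571 CPM in wild type, with 0 called. Activated fibroblast markers summed to 2623 CPM in overexpression replicate 1, to 1277 to 1447 CPM in the other overexpression libraries and to 766 to 909 CPM in wild type, and that list also holds Acta2. Without it the sum was 1589 CPM in overexpression replicate 1, 563 to 687 CPM in the other overexpression libraries, which is below every wild type library, and 729.7 to 894 CPM in wild type. Schwann cell and neuron markers summed to 87.0 to 101 CPM in overexpression and 73.2 to 74.7 CPM in wild type, with Th at 0 counts in every library. Without Mbp, the 1 gene of that list called higher, the sums overlapped at 19.4 to 26.8 CPM in overexpression and 18.9 to 23.5 CPM in wild type. Lung epithelial markers summed to 5.73 to 13.0 CPM in overexpression and 0.357 to 0.846 CPM in wild type, with Sftpc at 0. Sftpa1 made up most of that sum, and without it the range was 0.347 to 0.665 CPM in overexpression and 0.357 to 0.705 CPM in wild type. Macrophage markers (781 to 1059 and 630 to 897 CPM), vascular endothelial markers (1339 to 1886 and 1581 to 1794 CPM), epicardial markers (433 to 835 and 424 to 485 CPM) and skeletal muscle markers (988 to 1269 and 1221 to 1856 CPM, with Myod1 at 0) overlapped between overexpression and wild type, in that order. Ckm made up most of the skeletal muscle sum, with 962 to 1245 CPM in overexpression and 1200 to 1813 CPM in wild type. Endocardial markers were lower, 1441 to 1716 CPM in overexpression and 1810 to 1894 CPM in wild type, with 0 of 4 called. In whole atria, fewer cells of a type and less RNA per cell cannot be told apart.

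Set against the sarcomere rather than against all genes, the members read differently. Of 33 sarcomere genes 8 fell and 0 rose (24.2% called, against 4.84% of all genes), and their median was -0.35 on the log2 scale. When the libraries were scaled to that list, the median of all genes moved to 0.40 and 22.5% of all genes were called, with 20.9% of all genes called higher. On that scale the median of the 8 members was 0.32. Sntb1 (1.08 ± 0.28, adjusted p = 0.0219) and Dtna (0.64 ± 0.14, adjusted p = 0.0116) were called higher. Sgcb stood at -0.04 ± 0.14 (adjusted p = 0.839), Sgca at -0.20 ± 0.20 (adjusted p = 0.444), and Dmd and Utrn at 0.37 ± 0.13 (adjusted p = 0.0602) and 0.36 ± 0.12 (adjusted p = 0.0524). Dmd, Utrn, Dag1 and Sgcd changed sign with this scaling, and Dmd, Utrn and Sgcd also with library totals only, all without a call in either direction.

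**Figure D2:**
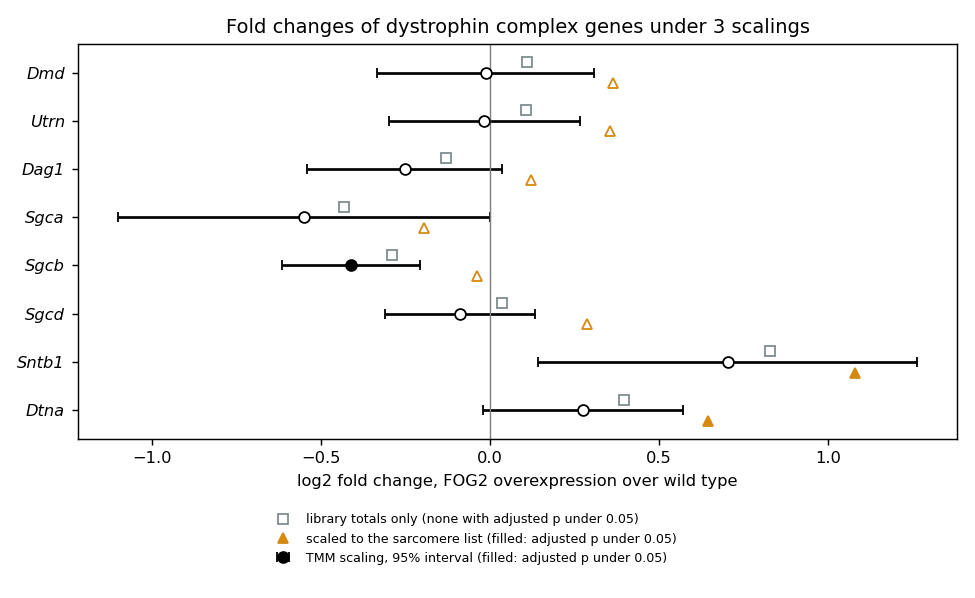
Log2 fold change, overexpression over wild type, of each member with its 95% interval under TMM scaling (circles), and its value with library totals only (squares) and with libraries scaled to sarcomere genes (triangles); filled symbols have an adjusted p under 0.05. Sgcb is filled at -0.41 under TMM scaling and lies at -0.04 on the sarcomere scale, where Sntb1 and Dtna are filled.

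Ratios within the complex compare members inside a library and are free of scaling. Of the 7 ratios to Dmd, none separated the groups without overlap. Counts of Sgcb per count of Dmd were 0.104, 0.139, 0.115 and 0.1095 in overexpression replicates 1 to 4, against 0.170, 0.127 and 0.166 in wild type replicates 1 to 3. Counts of Sgca per count of Dmd were 0.0554, 0.112, 0.0931 and 0.115 in overexpression, against 0.129, 0.109 and 0.179 in wild type. The exact two-sided permutation p was 0.114 for Sgcb and for Sntb1, 0.171 for Dag1, Sgca and Dtna, and 0.571 for Sgcd. Adjusted over the 7 ratios, the smallest p was 0.240.

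Per length of exon, the complex spanned a wide range of transcript levels. CPM per kb of exon, using the union of all annotated exons, averaged 43.1 ± 5.52 for Dag1, 43.0 ± 13.8 for Sgca, 33.5 ± 4.07 for Dmd, 32.6 ± 3.99 for Utrn and 22.7 ± 1.46 for Sgcb in overexpression (SD, n = 4). In wild type Sgca came first at 62.9 ± 9.05, then Dag1 at 51.3 ± 5.61, Dmd at 33.8 ± 4.93, Utrn at 33.0 ± 2.51 and Sgcb at 30.2 ± 1.65 (SD, n = 3). The members on the inner face and Sgcd were far lower: Sgcd had 6.85 ± 0.489, Dtna 4.91 ± 0.788 and Sntb1 1.63 ± 0.470 CPM per kb in overexpression, against 7.28 ± 0.516, 4.05 ± 0.172 and 0.996 ± 0.119 CPM per kb in wild type. In both groups the values of Dmd and Utrn overlapped, as did those of Dag1 and Sgca. Differences between genes were not tested. Short isoforms of Dmd share exons with the long one, so the level per length is that of the gene and not of full-length dystrophin.

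**Figure D3:**
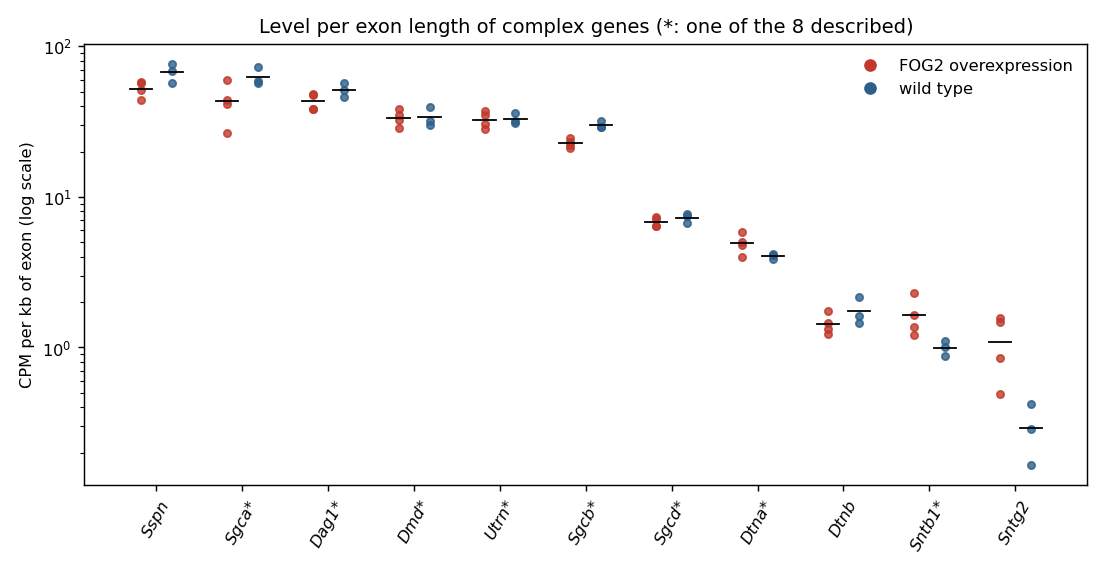
CPM per kb of exon on a log axis for the 8 members (starred) and for Sspn, Sntg2 and Dtnb, ordered by the wild type mean, with a point for each library (overexpression red, left; wild type blue, right) and a line at each mean. Of the genes plotted, Sspn has the highest mean in both groups, and the groups do not overlap for Sntb1 and Sntg2, with higher values in overexpression.

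The other subunits and paralogs of the complex were not called: 0 of 9 tested genes rose and 0 fell under edgeR, 2 had an unadjusted p under 0.05 (22.2%, against 19.2% of all genes), and DESeq2 called 1, Sntg2, higher. DESeq2 called 8.62% of all genes, and 3.47% were called higher. Sspn, sarcospan, had 262 ± 32.9 CPM in overexpression and 336 ± 48.9 CPM in wild type (log2 fold change -0.36 ± 0.14, SE, adjusted p = 0.195). Sntg2, a gamma-syntrophin, had 1.66, 5.34, 5.04 and 2.90 CPM in overexpression and 1.43, 0.564 and 0.984 CPM in wild type (1.85 ± 0.50, adjusted p = 0.0706). The groups did not overlap, and without overexpression replicate 1 its adjusted p was 0.00876 (range over all alternatives 0.00876 to 0.253). Dtnb, beta-dystrobrevin, stood at -0.28 ± 0.18 (adjusted p = 0.442). Sgcz and Dytn had 0 counts in every library.

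Dystroglycan binds laminin through a sugar chain, and 17 genes of its glycosylation were tested, of which 1 rose and 0 fell, with a median log2 fold change of 0.01. The share called, 5.88%, was near the 4.84% of all genes. For 1 of the 17 genes (5.88%, against 19.2% of all genes) the unadjusted p was under 0.05. Pomgnt1, a glycosyltransferase among these genes, had 73.8, 75.1, 81.6 and 81.2 CPM in overexpression and 58.9, 59.8 and 61.9 CPM in wild type. It rose by 0.37 ± 0.09 on the log2 scale (SE, adjusted p = 0.0435), and of the fits that left out a library only the one without overexpression replicate 1 called it. Its adjusted p was 0.0792, 0.0952 and 0.109 without overexpression replicates 2, 3 and 4, and 0.179, 0.179 and 0.101 without wild type replicates 1, 2 and 3. Ispd and Pomk, with log2 fold changes of 0.20 ± 0.14 and 0.21 ± 0.15, followed in order of p and were not called.

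Basement membrane genes, the outer partners of dystroglycan, had a median log2 fold change of 0.26, with 14 of 17 values positive (82.4%, against 53.2% of all genes) and 0 called by edgeR. An unadjusted p under 0.05 was found for 4 of them (23.5%, against 19.2% of all genes), and DESeq2 called 3 higher, where it called 3.47% of all genes higher. Lamb2, a laminin chain, had 795, 617, 943 and 925 CPM in overexpression and 537, 563 and 582 CPM in wild type (0.55 ± 0.16, SE, adjusted p = 0.0851). It was called without overexpression replicate 2 (adjusted p = 0.0227; range over all alternatives 0.00162 to 0.270). Hspg2, perlecan, had 978, 736, 931 and 779 CPM in overexpression and 560.5, 632 and 661 CPM in wild type (0.47 ± 0.14, adjusted p = 0.0894). In both genes every overexpression library exceeded every wild type library. Of the 14 smooth muscle and pericyte markers, 3 were called higher (Acta2, Cspg4 and Notch3), while Smtn and Abcc9 had negative values. Without Acta2 the sums of that list overlapped between the groups. The part of these markers was not tested.

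Among 18 signalling and scaffold genes that associate with the complex, 1 rose and 2 fell, or 16.7% called, against 4.84% of all genes. For 5 of them (27.8%, against 19.2% of all genes) the unadjusted p was under 0.05. Aqp4, a water channel that syntrophin anchors at the membrane, fell to 6.12 ± 0.626 CPM in overexpression (SD, n = 4), against 12.3 ± 2.65 CPM in wild type (SD, n = 3), a log2 fold change of -1.01 ± 0.19 (SE, adjusted p = 0.0207). Camk2d, a calcium-dependent kinase, fell to 189 ± 22.0 CPM in overexpression, against 266 ± 15.7 CPM in wild type (-0.49 ± 0.11, adjusted p = 0.0413). Synm, the intermediate filament protein synemin, rose to 89.2 ± 3.94 CPM in overexpression, against 66.1 ± 4.93 CPM in wild type (0.43 ± 0.09, adjusted p = 0.0303). In all 3 genes the groups did not overlap. Sync, syncoilin, which binds dystrobrevin, stood at 0.65 ± 0.17 (adjusted p = 0.0587) and was called without overexpression replicate 1 (0.0164; range 0.00183 to 0.233). Cav1, caveolin-1, had 732 CPM in overexpression replicate 1, 390.1 to 449 CPM in the other overexpression libraries and 666 to 785 CPM in wild type. It was not called (-0.51 ± 0.21, adjusted p = 0.238), and without replicate 1 its log2 fold change was -0.75 (adjusted p = 0.00223; range 0.00223 to 0.725). Krt19 had a log2 fold change of 0.78 ± 0.41 (adjusted p = 0.353). Aqp4 was not called without overexpression replicates 2 or 3 or wild type replicates 2 or 3 (adjusted p 0.0505 to 0.115), Camk2d without overexpression replicates 2 or 4 or any wild type library (0.0788 to 0.182), or Synm without any library but overexpression replicate 1 (0.0655 to 0.139).

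The integrin linkage is the other route from the matrix to the costamere. Of 20 genes, 17 had positive values (85.0%, against 53.2% of all genes), 2 rose and 0 fell, where 1.55% of all genes were called higher, and the median log2 fold change was 0.27. Csrp1, a LIM protein known from smooth muscle, rose to 117 ± 11.1 CPM in overexpression (SD, n = 4), against 62.2 ± 16.8 CPM in wild type (SD, n = 3), or 0.91 ± 0.17 on the log2 scale (SE, adjusted p = 0.0195). Zyx, the focal adhesion protein zyxin, rose to 113 ± 19.2 CPM in overexpression, against 72.1 ± 8.86 CPM in wild type (0.64 ± 0.15, adjusted p = 0.0432). Actn1, the non-muscle alpha-actinin (0.71 ± 0.18, adjusted p = 0.0620), Itga9 (0.30 ± 0.10, adjusted p = 0.141) and Lims1 (0.27 ± 0.10, adjusted p = 0.166) were not called. Csrp1 was not called without overexpression replicate 2 or wild type replicates 1 or 2 (adjusted p 0.0513 to 0.101), nor Zyx without any library but overexpression replicate 1 (0.0754 to 0.140), while Actn1 was called without that replicate (0.0114; range 0.00624 to 0.209). The part of the smooth muscle and pericyte markers was not tested here either.

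Membrane repair genes, which reseal the tears that the complex guards against, had 1 of 19 called higher and 2 lower, with a median log2 fold change of 0.27. The share called was 15.8%, against 4.84% of all genes. It counts Mlip, 1 of the 2 called lower, which is not itself known as a repair factor. For 8 of the 19 genes (42.1%, against 19.2% of all genes) the unadjusted p was under 0.05. Trim72, the muscle repair protein also called MG53, had 82.7, 62.2, 81.0 and 87.7 CPM in overexpression replicates 1 to 4, against 140.4, 157 and 189 CPM in wild type replicates 1 to 3. Every overexpression library was below every wild type library, and the log2 fold change of -1.05 ± 0.14 (SE, adjusted p = 0.00366) was called in all 20 alternative settings. Mlip, a muscle protein that binds lamin, had 52.6, 50.2, 47.9 and 41.6 CPM in overexpression and 136, 127 and 131 CPM in wild type. It fell by 1.45 ± 0.10 on the log2 scale (adjusted p = 1.18e-04) and was called in all 20 settings too. Ptrf, cavin-1, which shapes caveolae and takes part in repair, rose to 443 ± 42.1 CPM in overexpression, against 285 ± 35.6 CPM in wild type (0.64 ± 0.12, adjusted p = 0.0215). It was not called without overexpression replicates 3 or 4 or wild type replicates 1 or 2 (adjusted p 0.0567 to 0.124). Dysf, dysferlin (0.60 ± 0.15, adjusted p = 0.0526), Capn2 (0.38 ± 0.09, adjusted p = 0.0553) and Smpd1 (-0.50 ± 0.13, adjusted p = 0.0706) were not called. Without overexpression replicate 1 all 3 were, with adjusted p of 0.0333, 0.0392 and 0.00294; over all alternatives their adjusted p ranged from 0.00309 to 0.218, 0.00311 to 0.209 and 0.00294 to 0.568. Dysf was also called without overexpression replicate 2 (adjusted p = 0.0295).

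**Figure D4:**
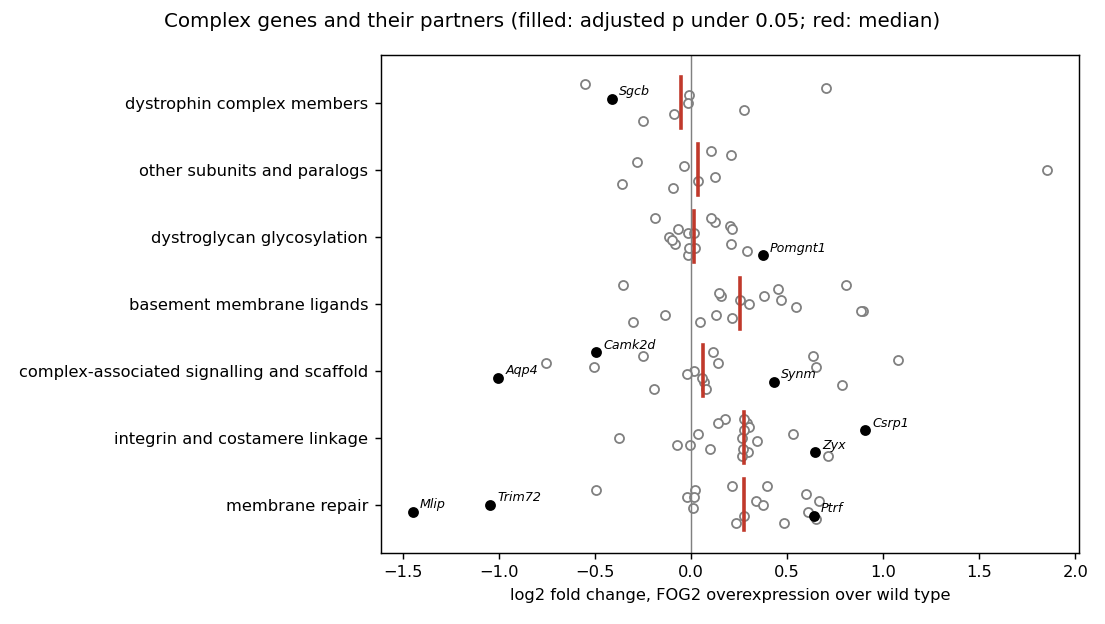
Log2 fold change, overexpression over wild type, of each tested gene of the complex and of its 6 partner lists, with genes at an adjusted p under 0.05 filled and named and each list's median in red. Medians of 0.26, 0.27 and 0.27 stand out to the right for the basement membrane, integrin and repair lists, and that of the complex is -0.05.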

How the data were processed

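The authors deposited whole-number counts per gene for 7 libraries, with summary rows as HTSeq writes them. The submitters' processing notes name STAR, HTSeq 0.6.0, DESeq2 and build mm10. The sources used here do not state their roles or the strand setting, so reads of a gene and its antisense partner cannot be told apart. One label says polyA mRNA and the protocol says removal of ribosomal RNA, so the selection is uncertain. Rows that name no gene, with 66.9% to 72.2% of reads, entered neither library sizes nor tests. All 7 count columns were mapped by name. Genes were filtered with filterByExpr (minimum count 10, minimum total 15), scaled by TMM and compared by the robust quasi-likelihood F test of edgeR 4.0.16 (R 4.3.3; two-sided, no covariate), with Benjamini-Hochberg adjustment over all 13295 tested genes. Dividing the size of the log2 fold change by the root of F gave its standard error, and intervals use the test's degrees of freedom. Positions and exon lengths come from GENCODE M21 by symbol. Alternatives were other scalings and filters, DESeq2 1.42.0, limma-voom (limma 3.58.1), a replicate block, a Y-linked covariate and leaving out each library. The members and lists were chosen with earlier results of these data known; genes named are the 8 members, Zfpm2, and of each partner list the genes called and up to 3 more with the smallest p. Some genes that this rule names are left out of the text; they stayed in the counts.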

Additional observations from a re-analysis of the deposited data

Results flagged for a closer look

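In 3 of 36 genes examined, 1 overexpression library lay far from the other 3 of its group, by a gap test that chance passes in about 5% of groups. Krt19, a keratin, had 76.1 CPM in overexpression replicate 1 and 24.7 to 30.9 CPM in the other 3. Actn1 had 85.96 CPM in overexpression replicate 1 and 52.9 to 57.5 CPM in the other 3. Ptrf had 380.3 CPM in overexpression replicate 2 and 462 to 467 CPM in the other 3. None of the 8 dystrophin complex genes showed such a gap. The 3 wild type libraries were not examined by this test.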

How the results depend on the processing

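The count of dystrophin complex genes called was 1 with every library and TMM scaling. It was 0 with library totals only, 2 with libraries scaled to the sarcomere genes (Sntb1 and Dtna, higher) and 0 among the libraries without Y-linked transcripts, a subset chosen after seeing the data; leaving out a library gave 0 to 2, the 2 being Sgcb and Dtna without overexpression replicate 1. Of 160 values of the members under 20 settings, 14 changed their call and none changed direction with a call. The count over all genes, 644, was 2995 on the sarcomere scale, 1141 with DESeq2, 382 with the replicate block and 256 to 1151 with a library left out; with library totals only 60.2% of calls were higher against 32.0%. With the replicate block 1 member was called, Sgca (-0.78 ± 0.16, adjusted p = 0.0449; range over all alternatives 0.0449 to 0.487), and Sgcb had an adjusted p of 0.109; of the 9 partner genes called without it, Mlip and Trim72 were called with it. In that block fit overexpression replicate 4 had no same-numbered wild type library, so it added nothing to the group difference. The same-numbered libraries deviated from their group means with r = 0.0789, 0.0136 and 0.0720, and overexpression replicate 2 correlated best with another number, so the numbers are not taken as pairs. Single partner calls were also lost outside the fits without a library: Camk2d on the sarcomere scale (-0.12, adjusted p = 0.485), with library totals only (0.0819) and in the libraries without Y-linked transcripts (0.0781), Aqp4 on the sarcomere scale (0.0575) and in those libraries (0.0620), Pomgnt1 with no filter (0.0700), when Y-linked counts entered as a covariate (0.0557) and in those libraries (0.0561), Zyx with that covariate (0.0521) and Ptrf in those libraries (0.0505). Partner lists changed most on the sarcomere scale, where 10 basement membrane, 15 integrin linkage and 10 repair genes were called higher, where 20.9% of all genes were. Fits that left out a library had fewer samples. Sntb1, at 38 to 79 counts per library, is the member whose precision depth limits most.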
